A study of Mus musculus with 6 samples.

Results

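The 10 adenylyl cyclase genes of the mouse, Adcy1 to Adcy10, were compared between the carotid body and the adrenal medulla. They were taken from the deposited expression table by name, which gave 10 rows of 26728 entries, 1 row per gene. Adult C57/BL6 mice were left untreated, and RNA was sequenced from 3 pools of carotid body (CB), the oxygen-sensing organ at the carotid bifurcation, and 3 pools of adrenal medulla (AM), the inner part of the adrenal gland, which secretes catecholamines. Each pool came from 10 mice and held 18 carotid bodies or 10 adrenal medullas. The labels give no genotype other than the strain, and n counts pools of whole dissected tissue, so p-values measure only the spread between these pools.

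Adenylyl cyclases make the second messenger cyclic AMP (cAMP) from ATP. The membrane-bound isoforms are switched on by the G protein alpha subunit Gs, and they differ in what calcium does to them. Adcy1 and Adcy8 are stimulated by calcium through calmodulin. Adcy3, the cyclase of olfactory cilia, is grouped with them here, and sums with Adcy3 among the remaining isoforms are also given. Adcy5 and Adcy6 are inhibited by calcium. Adcy2, Adcy4 and Adcy7 respond to G protein beta-gamma subunits and not directly to calcium, Adcy9 is restrained by the phosphatase calcineurin, and Adcy10 is a soluble enzyme driven by bicarbonate. In glomus cells of the carotid body and chromaffin cells of the adrenal medulla, cAMP is known as a modulator of channels and transmitter release.

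Levels are in RPKM, the reads of a gene scaled to its mRNA length and to the depth of the library. Comparing them between genes assumes that reads grow with mRNA length. That was not tested for this RNA, which was amplified from the poly(A) tail, so orders and shares of isoforms depend on it. The libraries held 13266225 to 16445925 reads, and Adcy4 was read 1168 times over the CB pools and 115 times over the AM pools. Differences below are CB minus AM in log2(RPKM + 1), where low genes appear closer together than they are. They were tested with limma over 13357 entries that reached 1 RPKM in at least 3 libraries, and called at an adjusted p under 0.05. The markers Pnmt and Olfr78 followed the labels. Pnmt, the enzyme of adrenaline synthesis, was at 6.84 ± 8.59 RPKM in the CB and 4325 ± 1669 in the AM, and Olfr78, an olfactory receptor known from glomus cells, at 101 ± 29.2 and 1.08 ± 0.591 (SD, n = 3 pools each). Of 12 listed markers of chromaffin and glomus cells, 4 were higher in the CB and 7 in the AM, with Th and Kcnk3 among the 7. The call of Th ended in 5 of 17 alternatives and that of Kcnk3 in 1. The 12 markers summed to 3295 to 4400 RPKM in the CB and 13219 to 25028 in the AM. The AM pools also held adrenal cortex transcripts, with 12 of 12 cortex markers higher there. Carotid body pool 2 stood apart in fat transcripts, with the adipocyte hormone gene Adipoq at 338 RPKM against 26.7 and 53.0 in pools 1 and 3. The summed adipocyte markers were likewise high in AM pool 3 (2236 RPKM, with 719.6 and 230.1 in pools 1 and 2).

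The members called higher in the CB were Adcy4 and Adcy5, and the tested member with the lowest difference was Adcy9, which was not called. The 250 bases before the RefSeq start of these genes are shown for that reason, 5′ to 3′ on the gene's strand, in build GRCm38.p6. This is a later build than the mm9 of the deposited values and was matched by gene symbol. Capitals mark every match, on either strand, of ACGTG (core of the hypoxia response element), TGACG (start of the cAMP response element) and GGAAG (core bound by ETS factors). RefSeq promoter entries were matched for 8 of the 10 genes.
Adcy4, chr14:55784073-55784322, minus strand: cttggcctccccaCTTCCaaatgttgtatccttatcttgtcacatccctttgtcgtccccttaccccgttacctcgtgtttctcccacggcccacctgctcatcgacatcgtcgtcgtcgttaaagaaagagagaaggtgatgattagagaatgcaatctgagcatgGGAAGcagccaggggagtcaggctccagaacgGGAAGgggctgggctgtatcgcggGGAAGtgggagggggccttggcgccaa
Adcy5, chr16:35154614-35154863, plus strand: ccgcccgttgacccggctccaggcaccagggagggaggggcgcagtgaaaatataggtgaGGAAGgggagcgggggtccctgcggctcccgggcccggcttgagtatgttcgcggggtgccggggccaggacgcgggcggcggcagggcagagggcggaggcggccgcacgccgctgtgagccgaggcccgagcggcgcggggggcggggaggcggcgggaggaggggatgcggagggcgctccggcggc
Adcy9, chr16:4420499-4420748, minus strand: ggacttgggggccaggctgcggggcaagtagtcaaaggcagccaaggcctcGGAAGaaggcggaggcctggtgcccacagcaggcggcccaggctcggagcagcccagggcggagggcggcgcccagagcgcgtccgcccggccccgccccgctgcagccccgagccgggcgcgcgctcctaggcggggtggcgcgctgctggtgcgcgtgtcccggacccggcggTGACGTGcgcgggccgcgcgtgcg
The window of Adcy4 held 4 matches of GGAAG and none of the other motifs. At least 4 such matches were found in 3.39% of 32851 promoter windows of this length, and at least 1 in 64.1%. The window of Adcy5 held 1 GGAAG match. The window of Adcy9 held 1 match of each motif, and those of the hypoxia and cAMP elements overlapped there. The hypoxia core was found in 16.6% of all windows and the cAMP element start in 17.8%. These matches describe letters in the windows and were not tied to any binding measurement.

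Of the 10 genes, 7 passed the expression filter, 2 of these were called higher in the CB, and 5 were not called. Over all tested entries, 14.2% were called higher in the CB and 7.73% higher in the AM. limma called 0 members higher in the AM, against 2 at an unadjusted p under 0.05 in that direction and 0 by limma's voom on recovered reads. In the alternatives that the text refers to, the shares of all entries called higher in the CB and in the AM were 7.87% and 3.76% with no filter on low values, 16.9% and 10.2% with the pool number as a block, 12.7% and 10.4% under quantile scaling and 13.7% and 9.07% under median-ratio scaling. They were 14% and 7.5% with voom, and 11.9% and 6.47% with voom and no filter. The median log2 difference of the 7 tested members was 0.28, against 0.02 over all tested entries. Adcy2, Adcy8 and Adcy10 stayed below the filter. Over all 10 genes, the 3 CB pools lay above the 3 AM pools for 6 and below them for 2; among all 23511 entries with an mRNA length these shares were 17.1% and 10.8%.

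**Figure D1:**
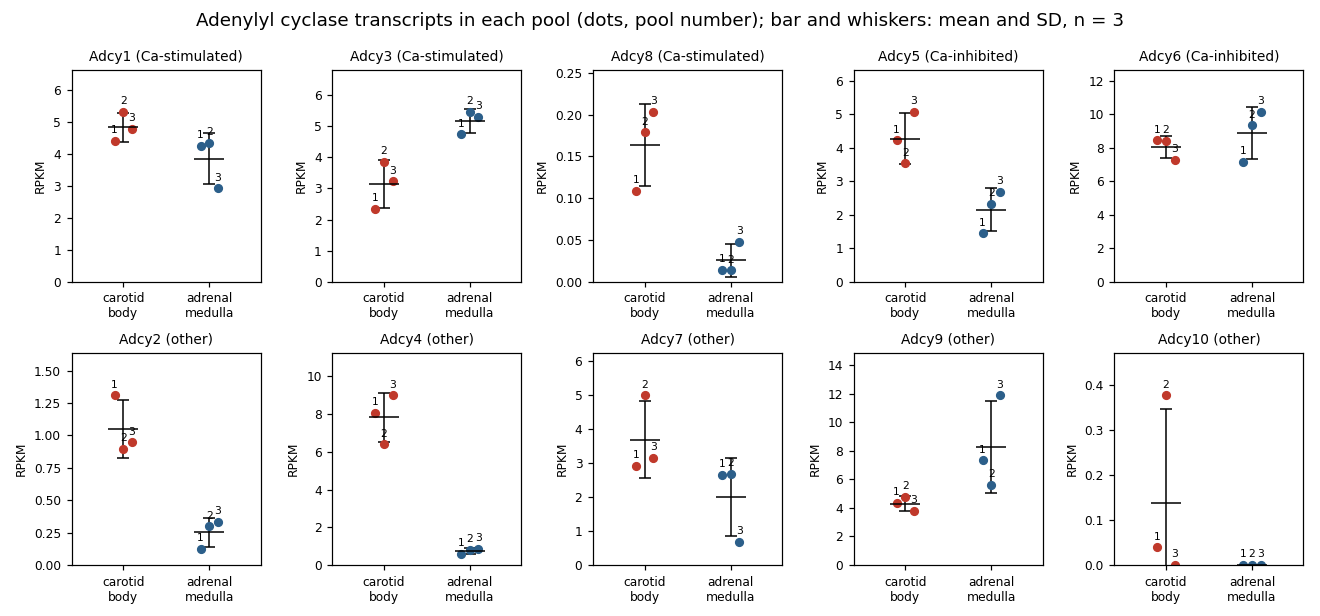
RPKM of each adenylyl cyclase gene (y axis, linear, own scale per gene) in the 3 carotid body pools (red) and the 3 adrenal medulla pools (blue); small digits are pool numbers, the bar is the mean and the whiskers the SD. Adcy4 sits at 6.40 to 8.99 RPKM in the carotid body and at 0.589 to 0.855 in the adrenal medulla, while Adcy6 overlaps between the tissues.

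Among the calcium-stimulated isoforms, none was called. Adcy1, the neuronal calmodulin-stimulated cyclase, was at 4.41, 5.32 and 4.80 RPKM in CB pools 1, 2 and 3 and at 4.27, 4.35 and 2.93 in AM pools 1, 2 and 3. All CB pools lay above the AM pools, but by less than the test resolves (log2 difference 0.28 ± 0.21 SE, limma adjusted p = 0.432). Adcy3 was at 2.35, 3.86 and 3.23 RPKM in the CB and 4.74, 5.45 and 5.30 in the AM. The ranges did not overlap, with the AM higher, and the difference of -0.59 ± 0.21 missed the threshold (limma adjusted p = 0.0908). It was called under quantile scaling (-0.73, adjusted p = 0.0324), and its adjusted p ran from 0.0324 to 0.262 over 17 alternatives. Adcy3 was thus the lower of this pair in every CB pool and the higher in every AM pool: the Adcy3 to Adcy1 ratio was 0.532 to 0.726 in the CB and 1.11 to 1.81 in the AM.

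Adcy8, the second calmodulin-stimulated isoform of nerve cells, was near the limit of detection. It had 8, 12 and 16 reads in the CB pools and 1, 1 and 4 in the AM pools. Summed over pools and scaled to depth, its reads were 6.11 times as many in the CB, with an exact 95% counting interval of 2.55 to 17.7 that leaves out the spread between pools. With no filter on low values, limma called Adcy8 higher in the CB (adjusted p = 0.0394), when 7.87% of 23511 entries were called in that direction. At 0.163 ± 0.0488 RPKM (SD, n = 3) it supplied 0.435% of the adenylyl cyclase transcripts there.

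Of the calcium-inhibited isoforms, Adcy5 was called and Adcy6 was not. Adcy6, a widely expressed cyclase, was the most abundant isoform by mean RPKM in both tissues. It was at 8.44, 8.43 and 7.28 RPKM in the CB and 7.17, 9.34 and 10.1 in the AM. Its ranges overlapped and no difference was detected (-0.12 ± 0.22, limma adjusted p = 0.780). Counted in reads over the pools of a tissue, not per length, other isoforms led. These were Adcy1 in the CB (2566 reads, Adcy6 2098) and Adcy9 in the AM (2930 reads, Adcy6 2393). Adcy5, best known from striatum and heart, was at 4.22, 3.53 and 5.06 RPKM in the CB and 1.44, 2.33 and 2.68 in the AM. Every CB pool exceeded every AM pool, with a ratio of means of 1.99, and Adcy5 was called at the edge of the threshold (0.75 ± 0.23, limma adjusted p = 0.0467). That call ended without CB pool 1 (adjusted p = 0.113), 2 (0.0623) or 3 (0.162) and without AM pool 1 (0.152) or 2 (0.107), and it held without AM pool 3 (0.0252). It also ended under median-ratio scaling (0.0752) and quantile scaling (0.133), and its direction was the same in all 17 alternatives. The Adcy5 to Adcy6 ratio was 0.501, 0.419 and 0.696 in the CB pools and 0.201, 0.249 and 0.265 in the AM pools.

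Adcy4 showed the clearest tissue difference of the family. It was at 8.08, 6.40 and 8.99 RPKM in the CB, a range that overlapped that of Adcy6, and at 0.589, 0.821 and 0.855 RPKM in the AM. The tissue means, 7.82 ± 1.31 and 0.755 ± 0.145 RPKM (SD, n = 3), differed 10.4-fold, and the log2 difference was 2.32 ± 0.20 (SE, limma adjusted p = 8.86e-05). Adcy4 stayed called in 17 of 17 alternatives, with log2 differences of 2.16 to 3.36. Of these, the values with a pseudocount of 0.5 (2.72) or 0.1 (3.21) and with voom (3.36) are on other scales. By size in the main fit, Adcy4 ranked 320 among 13357 tested entries, counted from the largest difference towards the CB.

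Adcy2, a beta-gamma-stimulated isoform of brain, moved in the same direction at a low level. It was at 1.31, 0.895 and 0.946 RPKM in the CB and 0.124, 0.299 and 0.332 in the AM, so the tissues did not overlap. Only 1 library reached 1 RPKM, and the gene entered the test with no filter on low values, where it was called (log2 difference 0.71 ± 0.11, limma adjusted p = 0.0213). Adcy7, the isoform known from blood cells, was at 2.92, 4.99 and 3.15 RPKM in the CB and 2.65, 2.68 and 0.685 in the AM. Adrenal medulla pool 3 was far below the other pools, and Adcy7 was not called (0.70 ± 0.33, limma adjusted p = 0.192). Without that pool the difference was 0.33, and without CB pool 2 as well it was 0.14. The leukocyte gene Ptprc was also lowest in AM pool 3 (0.874 RPKM, with 2.91 and 2.59 in pools 1 and 2), while the summed leukocyte markers were highest there, at 331.6 RPKM against 167.9 and 218.9. The part of leukocytes in the Adcy7 values was not tested.

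Adcy9 was at 4.36, 4.77 and 3.78 RPKM in the CB and 7.34, 5.59 and 11.9 in the AM. All AM pools were above the CB pools, but they varied among themselves, with a coefficient of variation of 39.2% against 11.6% in the CB. The difference of -0.75 ± 0.28 was not called (limma adjusted p = 0.0913), nor in any of 17 alternatives (0.0646 to 0.253). It shrank to -0.49 without AM pool 3. Adcy10, the bicarbonate-responsive soluble cyclase best known from sperm, had 3, 26 and 0 reads in CB pools 1, 2 and 3 and 0 in each AM pool. A count of 0 allows up to 3 reads, or 0.0350 to 0.0429 RPKM in the AM pools, so the signal rests on CB pool 2. The summed adipocyte markers were at 3675 RPKM in CB pool 2. They were also high in AM pool 3, at 2236 RPKM, where Adcy10 had 0 reads. The part of fat in the Adcy10 signal was not tested.

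**Figure D2:**
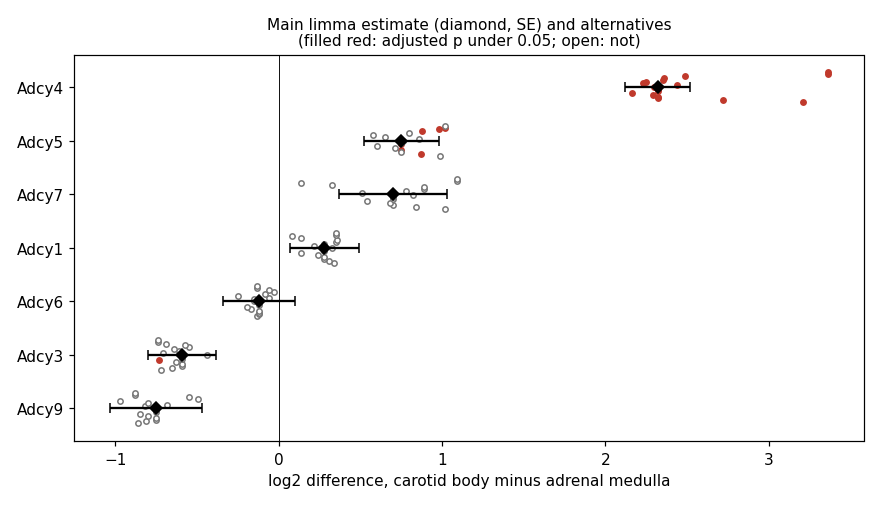
Log2 difference (x axis, carotid body minus adrenal medulla) of the 7 tested genes. The scale is log2(RPKM + 1) except for voom and for the alternatives with a pseudocount of 0.1 or 0.5. The diamond and bar are the main limma estimate and its SE, small points are the alternatives, filled red where the adjusted p was under 0.05. Adcy4 lies at 2.16 or above in every alternative, Adcy5 is filled in 6 of 17, and Adcy1, Adcy6, Adcy7 and Adcy9 in none.

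The mix of isoforms was then expressed as the share of each gene in the summed adenylyl cyclase RPKM of its library. That sum was 36.2, 38.7 and 37.4 RPKM in the CB pools and 28.3, 30.9 and 34.8 in the AM pools. Adcy4 supplied 20.9% ± 3.92 of it in the CB and 2.40% ± 0.295 in the AM (SD, n = 3). This was the widest gap of any isoform in percentage points on the per-length scale. Adcy9 supplied 11.5% ± 1.21 and 26.0% ± 7.99, and Adcy3 8.36% ± 1.76 and 16.5% ± 1.24. In reads, which favour long mRNAs, Adcy4 had 1168 over the CB pools and 115 over the AM pools, and Adcy9 had 1453 and 2930. Shares of single isoforms in reads are not given. Adcy6 took 21.5% ± 1.94 in the CB and 28.2% ± 2.58 in the AM; its level did not differ by the test, and shares of a fixed total fall when another isoform is higher. The shares of Adcy1, 12.9% ± 0.777 and 12.5% ± 3.59, overlapped. Ranked by mean RPKM, the order began Adcy6, Adcy4, Adcy1, Adcy9, Adcy5 in the CB and Adcy6, Adcy9, Adcy3, Adcy1, Adcy5 in the AM. Adcy6 and Adcy4 overlapped in the CB, as did Adcy6 and Adcy9 in the AM. In the CB, the ranges of Adcy1 and Adcy9, Adcy9 and Adcy5, Adcy5 and Adcy7, and Adcy7 and Adcy3 overlapped.

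**Figure D3:**
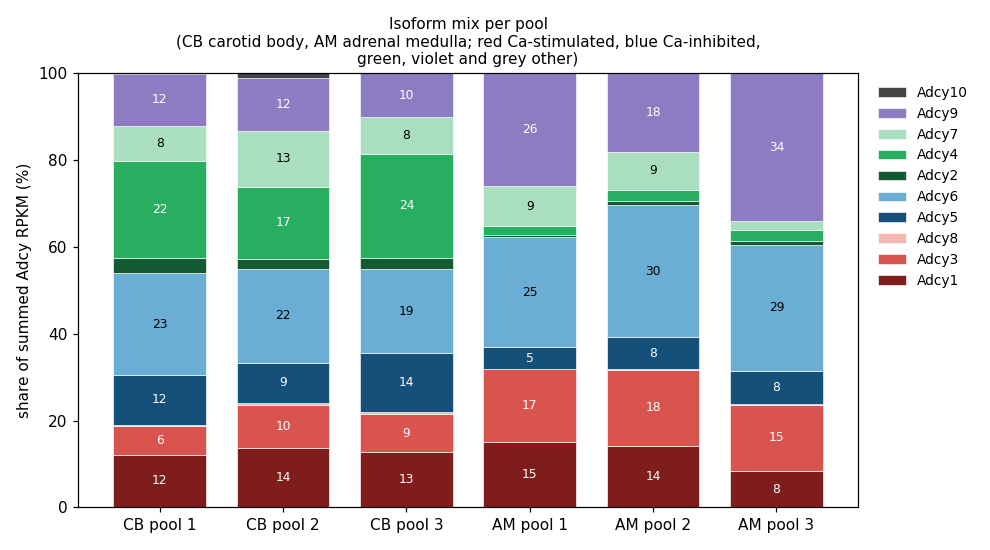
Share of each isoform in the summed adenylyl cyclase RPKM (y axis, percent) of each pool (x axis); red tones are calcium-stimulated, blue calcium-inhibited, and green, violet and grey the other isoforms. Adcy4 fills 16.5% to 24.0% of the carotid body pools and 2.08% to 2.66% of the adrenal medulla pools, and Adcy9 10.1% to 12.3% and 18.1% to 34.1%.

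The isoforms were then summed by their response to calcium. The calcium-inhibited pair made up 32.9% ± 2.04 of the transcripts in the CB and 35.0% ± 4.00 in the AM, with overlapping ranges. The calcium-stimulated isoforms made up 19.0%, 24.1% and 22.0% in CB pools 1, 2 and 3 and 31.8%, 31.8% and 23.8% in the AM pools. These ranges overlapped through CB pool 2 and AM pool 3. The remaining isoforms made up 45.4% ± 0.626 and 35.9% ± 4.81, without overlap. Within them, Adcy2, Adcy4 and Adcy7, which beta-gamma subunits stimulate, reached 33.5% ± 1.66 in the CB and 9.85% ± 3.88 in the AM. The calcium-stimulated sum was 0.664 ± 0.120 times the calcium-inhibited sum in the CB and 0.845 ± 0.200 times in the AM, again with overlap. With Adcy9 placed among the calcium-inhibited isoforms, that class came to 44.4% and 61.0%. With Adcy3 among the remaining isoforms, these came to 53.7% ± 1.19 and 52.4% ± 3.76. Counted in reads, not per length, the remaining isoforms made up 37.7% ± 0.988 in the CB and 37.0% ± 6.24 in the AM, so the difference in this class rests on the per-length scale and on where Adcy3 is placed. In reads the calcium-stimulated share was 32.1% and 33.4%. Adcy1 has the longest mRNA of the family, at 12.3 kb. No p is given for these sums over chosen genes.

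Because whole tissue was sequenced, a change in the number of cells of a type and a change of RNA per cell cannot be told apart. Part of the blood vessel markers were higher in the CB, as Adcy4 was. This held for 6 of 10 tested endothelial markers, while Kdr, Tek, Emcn and Plvap were not called. The count was 4 without CB pool 1, CB pool 3 or AM pool 1. The summed level of the endothelial list was 543 to 660 RPKM in the CB and 261 to 304 in the AM. The endothelial adhesion gene Pecam1 was at 59.3 ± 4.29 against 15.7 ± 1.24 RPKM. Smooth muscle and pericyte markers were higher for 9 of 10 (summed 2550 to 3076 against 115 to 118 RPKM), glial markers for 9 of 9 (513 to 566 against 103 to 115) and fibroblast markers for 8 of 8 (2189 to 2945 against 62.9 to 176). Neuronal markers were higher for 4 of 8, leukocyte markers for 3 of 8 (321 to 406 against 168 to 332) and adipocyte markers for 0 of 8 by limma, with 0 at an unadjusted p under 0.05 and 0 by voom. No marker of these lists was at 0 in all libraries. Per 1000 RPKM of summed endothelial markers, Adcy4 was at 12.99 ± 1.03 RPKM in the CB and 2.72 ± 0.475 in the AM, without overlap. Against smooth muscle and pericyte markers the order was the opposite, 2.89 ± 0.556 and 6.47 ± 1.18. For Adcy5, the level per 1000 RPKM of endothelial markers overlapped between tissues, at 7.09 ± 0.583 and 7.74 ± 2.26. It also overlapped against leukocyte and adipocyte markers, as Adcy7 did against each of these lists. Adcy5 was lower in all CB pools against smooth muscle and pericyte (1.58 and 18.4), glial (8.01 and 19.8) and fibroblast markers (1.71 and 22.3). Against cortex markers Adcy5 was higher in all CB pools (29.6 and 0.144). Adcy3 and Adcy9, which were not called, lay higher in all AM pools. Cortex markers summed to 14015 to 18174 RPKM in the AM against 105.0 to 219 in the CB. Markers of chromaffin and glomus cells summed to 13219 to 25028 against 3295 to 4400 RPKM. In AM pools 1, 2 and 3 the cortex sums were 18174, 14015 and 14238 RPKM. In the same pools Adcy3 was at 4.74, 5.45 and 5.30 RPKM and Adcy9 at 7.34, 5.59 and 11.9. The part of these cell types in the cyclase differences was not tested.

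**Figure D4:**
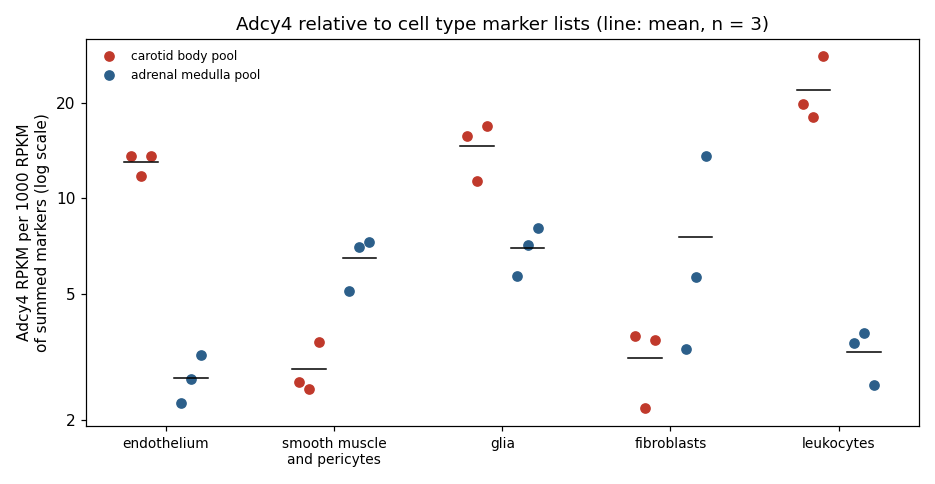
Adcy4 RPKM per 1000 RPKM of the summed markers of 5 cell types (y axis, log scale) in each carotid body pool (red) and adrenal medulla pool (blue), with the mean as a line. Relative to endothelial markers Adcy4 is higher in all 3 carotid body pools, and relative to smooth muscle and pericyte markers it is lower in all 3.

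As a description of likeness, the 5 genes of at least 10 RPKM in the CB whose levels followed Adcy4 most closely over the 6 libraries were Flna, Lamc3, Slc11a1, Vwf and Ddah2. Their Pearson r on the log2 scale was 0.998 to 1.00, over 6 libraries and 5994 genes compared. An r of at least 0.98 was reached by 212 of these genes. The libraries fall into 2 tissues, so such values mostly restate the tissue difference. Flna encodes an actin crosslinker, Lamc3 a laminin chain and Vwf the von Willebrand factor of endothelium. The log2 differences were 2.02 for Flna, 2.08 for Lamc3, 1.76 for Slc11a1, 2.43 for Vwf and 2.63 for Ddah2. Slc11a1 was at 25.8, 20.3 and 27.4 RPKM in the CB and 5.78, 6.78 and 6.89 in the AM. Vwf was at 11.8, 8.84 and 11.7 RPKM in the CB and 0.935, 1.36 and 1.23 in the AM. The cell types behind these 5 genes were not tested.

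The genes around the cyclases in the cAMP pathway were described from 11 lists. Outside the Adcy genes, 123 members were tested, of which 37 (30.1%) were higher in the CB, 10 (8.13%) were higher in the AM and 76 were not called, beside 14.2% and 7.73% of all tested entries. The count for the AM was 6 without CB pool 1, 18 without AM pool 3, and 19 without both CB pool 2 and AM pool 3.

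Of 16 tested receptors that couple to Gs, 9 were higher in the CB and 3 in the AM; a filter of 3 RPKM left 10 tested and 5 and 3 called. The adenosine receptor gene Adora2a was at 14.0, 10.2 and 8.81 RPKM in the CB and 0.372, 0.646 and 0.724 in the AM (2.91 ± 0.23, limma adjusted p = 5.70e-05). The melanocortin receptor gene Mc4r (2.73) and the beta-adrenergic receptor gene Adrb1 (1.66) were also higher. In the other direction were Mc2r, the corticotropin receptor of adrenal cortex (-6.36), the secretin receptor gene Sctr (-2.43) and Adcyap1r1, the receptor for the peptide PACAP. Adcyap1r1 was at 16.9 ± 4.29 RPKM in the CB and 52.3 ± 6.33 in the AM (-1.60 ± 0.24, adjusted p = 0.00176). Mc2r is itself among the cortex markers. Of 14 tested receptors that couple to Gi, which inhibits cyclases, 3 were higher in the CB, led by P2ry12 (3.48) and S1pr1 (2.12), and 4 in the AM, led by Npy2r (-3.77) and Adora1 (-2.83). With the pool number as a block, 5 and 4 were called. Adora1, an adenosine receptor, was at 3.31 ± 2.07 RPKM in the CB and 27.8 ± 4.64 in the AM. Adora2b, an adenosine receptor of the Gs list, was at 0.880 ± 0.284 and 1.81 ± 0.306 RPKM and was not called (-0.58, limma adjusted p = 0.0528). It was called higher in the AM in 5 of 16 alternatives, the block among them (0.0433).

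Among 7 G protein alpha subunits, 3 were called, all higher in the CB. Gnal, the olfactory and striatal relative of Gs, was at 8.51, 13.7 and 10.5 RPKM there and 4.63, 4.27 and 2.71 in the AM (1.29 ± 0.26, limma adjusted p = 0.00765), and kept its call in 17 of 17 alternatives. Gnas, which encodes Gs itself, was at 1758 ± 115 against 979 ± 51.3 RPKM (0.84, adjusted p = 0.0419), and Gnai2 at 186 ± 19.6 against 102 ± 24.5 (0.88, adjusted p = 0.0387). The call of Gnas ended with the pool number as a block (adjusted p = 0.0573), under median-ratio (0.105) and quantile (0.0530) scaling, and without any pool except CB pool 2. The call of Gnai2 ended without any pool except AM pool 3. Gnai1 (0.53, adjusted p = 0.191) and Gnai3 (-0.12, adjusted p = 0.879) were not called. In the olfactory-type list, the receptor genes Olfr78 and Olfr558 (3.64) and Gnal were higher in the CB, 5 of 8 tested genes were not called, and Adcy3, 1 of these 5 and the cyclase of that cascade in the nose, had the opposite sign. The olfactory channel subunit genes Cnga2, Cnga4 and Cngb1 stayed below the filter in both tissues.

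Of 19 genes for calmodulin, its kinases and calcineurin, 2 were higher in the CB, 1 was higher in the AM and 16 were not called. Over all tested entries, 14.2% were called higher in the CB and 7.73% in the AM. The calmodulin genes Calm2 and Calm3 were not called (0.02 and 0.47, limma adjusted p = 0.98 and 0.256), with Calm2 at 1051 ± 147 and 1049 ± 219 RPKM. The calcineurin regulators Rcan2 (1.77, at 18.9 ± 2.89 against 4.82 ± 0.851 RPKM) and Rcan1 (0.92) were higher in the CB, and the kinase gene Camk2b (-0.93) in the AM. Rcan1 lost its call without AM pool 2 (adjusted p = 0.0531), and Camk2b without CB pool 1 (0.0805), CB pool 2 (0.0767) or AM pool 2 (0.0816). The AM count of this list, 1, was 2 with the block and 3 without AM pool 3. Of 8 protein kinase C genes, 3 were higher in the CB, with Prkca, a calcium-activated form, at 14.5 ± 2.15 against 1.51 ± 0.595 RPKM (2.65, adjusted p = 1.33e-04). With the block, and without AM pool 3, 2 others were called higher in the AM.

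Downstream, the catalytic subunits of the kinase that cAMP activates (PKA) were not called. Prkaca was at 25.9 ± 5.88 against 43.5 ± 27.7 RPKM (limma adjusted p = 0.400) and Prkacb at 40.5 ± 7.57 against 58.2 ± 20.7 (adjusted p = 0.379); Prkacb became called higher in the AM without AM pool 3. The called members of this list, 3 of 9, encode inhibitors of PKA. Pkib was at 66.4, 144.8 and 124 RPKM in the CB and 1.64, 1.92 and 1.36 in the AM (5.35 ± 0.31, adjusted p = 1.60e-05), with Pkig at 1.13 and Pkia at 1.51. Pkia lost its call without CB pool 2 (0.110) or 3 (0.0807) and without AM pool 1 (0.0520) or 3 (0.0577). Of 8 tested genes for Epac proteins and cyclic nucleotide-gated channels, 3 were higher in the CB, among them Rapgef3, the cAMP-activated exchange factor Epac (1.77), and the channel subunit gene Cnga3 (1.42). The anchoring protein gene Akap12 was at 65.7 ± 17.7 against 3.93 ± 1.44 RPKM (3.77), with 4 of 16 anchoring genes called, all higher in the CB. Without AM pool 2 this count was 2, and without CB pool 2 it was 2 with 1 other gene, Akap1, called higher in the AM (-0.98, limma adjusted p = 0.0446). limma called 0 of 8 genes of the CREB family and its coactivators, with 1 at an unadjusted p under 0.05 in each direction and 0 by voom; with the block, 1 was called higher in the AM.

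Phosphodiesterases, which break down cAMP, went both ways: 5 of 13 tested genes were higher in the CB, 2 in the AM and 6 were not called; without CB pool 1 the counts were 3 and 0. The forms that calcium and calmodulin stimulate led the first group. Pde1b was at 12.3, 21.3 and 20.5 RPKM in the CB and 2.49, 2.96 and 2.54 in the AM (2.34 ± 0.26, limma adjusted p = 2.92e-04), and Pde1a was at 7.12 ± 0.870 against 2.37 ± 0.760 RPKM (1.29). Pde8b (-1.17) and Pde7a (-1.14) were higher in the AM. Pde7a lost its call without CB pool 1 (adjusted p = 0.0545), and Pde8b without CB pool 1 (0.0524), 2 (0.0545) or 3 (0.0840) or AM pool 1 (0.0609).

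**Figure D5:**
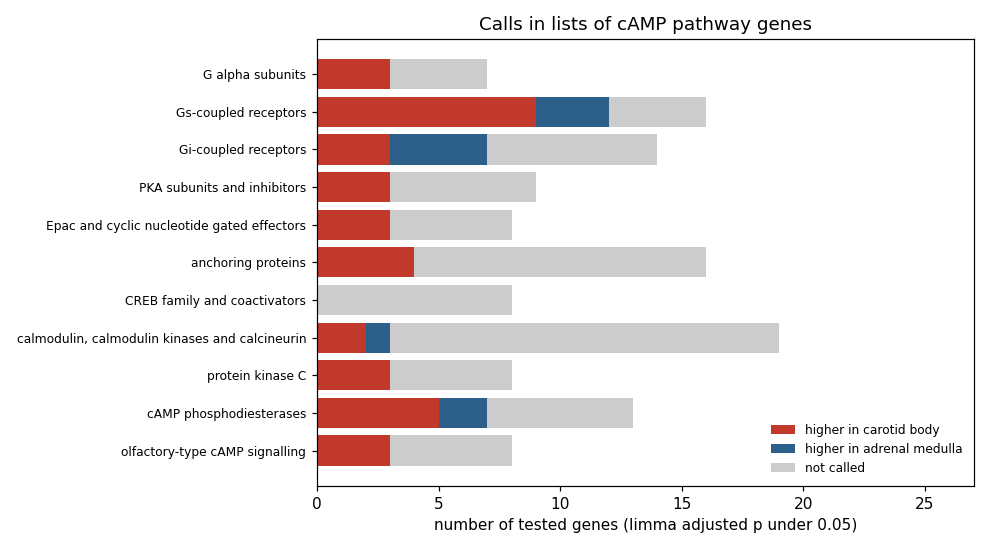
Number of tested genes (x axis) in each cAMP pathway list (y axis) called higher in the carotid body (red), higher in the adrenal medulla (blue) or not called (grey) by limma at an adjusted p under 0.05. Receptors coupled to Gs show 9 of 16 higher in the carotid body, and the CREB list shows 0 of 8 called.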

How the data were processed

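Total RNA of 3 carotid body and 3 adrenal medulla pools was amplified with an aRNA kit and sequenced, per the labels' protocols. That amplification starts at the poly(A) tail, and its effect on levels per length was not tested. Reads were aligned with Bowtie 0.9.8 to mm9, per the submitters' processing notes; the counting and its use of strand are not given in the sources used here. The deposited values are RPKM made by the authors for 23511 of 26728 entries. Another 3217 entries have no mRNA length and stayed out. RPKM times length was a whole multiple of 1 step per library, within 0.01, for 106276 of 106276 values above 0, which gave the reads per gene and the depth.

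limma 3.58.1 (R 4.3.3) was run on log2(RPKM + 1) with a variance trend, two-sided with Benjamini-Hochberg adjustment, and was tested on simulated data. Shares, ratios and intervals used Python 3.11.15, pandas 2.3.3 and scipy 1.17.1; plots used matplotlib 3.10.9. Counting intervals and floors cover counting error only, since amplified reads carry no molecular identifiers. Deviations from the tissue means in same-numbered pools had r = 0.259, 0.128 and 0.473 over genes for pools 1, 2 and 3. For pools of different number r ran from -0.622 to 0.291, the highest for CB pool 2 with AM pool 1. These values overlap, so they do not settle whether the pools are paired. The main fit used no pairing, and the pool number was a block in an alternative. The number comes from the titles, not from a stated shared day.

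The members and lists were chosen with earlier results of these data known. All 10 members are named, with up to 6 called genes per pathway list by size of difference, a set of G protein, PKA and calmodulin genes, the 5 genes most like Adcy4, and 10 markers. Some genes that this rule names are not reported here.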

Additional observations from a re-analysis of the deposited data

How the results depend on the processing

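Adcy4 stayed called in all 17 alternatives; Adcy1, Adcy6, Adcy7 and Adcy9 stayed uncalled in every alternative that tested them, and no member changed sign. Adcy5 lost its call with a pseudocount of 0.1 (0.99), no filter on low values (0.75), median-ratio scaling (0.71), quantile scaling (0.60), no variance trend (0.75), and voom on recovered reads with no filter (1.02); leaving out 1 pool gave 0.58 to 0.88. In these settings with the filter, 1 member was called higher in the CB, as without any 1 of CB pools 1 to 3 or AM pools 1 and 2 (range 1 to 2). Under quantile scaling Adcy3 (-0.73) was the 1 member called higher in the AM. The count of pathway genes higher in the AM was 6 to 18 without 1 pool and 19 without CB pool 2 and AM pool 3. The cause of these changes was not tested. With the replicate block, Adcy5 stayed called (0.75, adjusted p = 0.0317) and 2 members were called; beside the changes given with the results, the block changed no call of a member. Shares by class moved by more than 1 SD as follows. Counted in reads, in the CB and AM, the calcium-stimulated share was 32.1% and 33.4%, the calcium-inhibited share 30.2% and 29.6%, and that of other isoforms 37.7% and 37.0%; the calcium-stimulated and other shares of the AM moved by less than 1 SD. With Adcy9 among the calcium-inhibited, that class held 44.4% and 61.0% and the others 33.9% and 9.85%. With Adcy3 among the others, the calcium-stimulated share was 13.3% and 12.6%, and that of the others 53.7% and 52.4%. Leaving out 1 pool, the pair of pools or Adcy10, or counting Adcy10 as calcium-stimulated, moved no share by more than 1 SD. The planned edgeR test was not run, because the deposited unit is RPKM; voom on the recovered reads was added after the data were seen. Depth limits Adcy8 and Adcy10, with 42 and 29 reads over all libraries.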
